A study of Rattus norvegicus with 6 samples.

Results

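Intercalated cells are the acid-base cells of the connecting tubule and collecting duct. The genes described here are 9 that serve this work: the V-ATPase subunit genes Atp6v1b1, Atp6v1g3, Atp6v0d2 and Atp6v0a4, the anion exchanger genes Slc4a1 and Slc26a4, the ammonia channel genes Rhbg and Rhcg, and the transcription factor gene Foxi1. They were chosen by name, and every non-control probe whose accession belongs to one of these rat RefSeq symbols was taken. That gave 14 probes for 8 of the 9 genes, out of 31087 genes tested. Atp6v0a4 matched no probe and was not analysed here. The samples are renal cortex RNA from male Sprague-Dawley rats, which were 5 weeks old when purchased. Of these, 3 animals received o-anisidine hydrochloride (700 mg/kg/day) and 3 control animals received water, both for 4 weeks, by a route that the sources used here do not give. Each animal was measured on 1 single-colour (Cy3) Agilent array, and the series describes the animals as biological replicates. o-Anisidine is an aromatic amine, and the design asks which transcripts of the cortex differ after its administration.

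Type A intercalated cells pump protons into the urine through a V-ATPase in their apical membrane and return bicarbonate to the blood through the exchanger AE1, encoded by Slc4a1. Type B cells do the reverse and secrete bicarbonate through pendrin, encoded by Slc26a4. Foxi1 is the forkhead transcription factor that mouse collecting ducts need to form intercalated cells. In people, loss of the kidney subunits encoded by ATP6V1B1 or ATP6V0A4 causes distal renal tubular acidosis. Slc4a1 is shared with red cells, where the same gene gives the membrane protein band 3.

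The promoter of Atp6v1b1 (250 bases before the gene's start to 50 after, chr4:117781194-117781493, GRCr8, plus strand, from RefSeq) is shown because it was the only one of the members' promoters in the RefSeq table to hold the forkhead motif TGTTTAC or, on the other strand, GTAAACA. The promoter of Atp6v1g3 (chr13:52362082-52362381, GRCr8, plus strand), another V1 subunit gene, is set beside it and holds neither of these exact strings. It does hold near matches, such as tgtttag and tgtttat, which differ in the last base. Variants of the motif were not searched. Capitals mark the motif, which begins at position -93 relative to the start of Atp6v1b1.
Atp6v1b1: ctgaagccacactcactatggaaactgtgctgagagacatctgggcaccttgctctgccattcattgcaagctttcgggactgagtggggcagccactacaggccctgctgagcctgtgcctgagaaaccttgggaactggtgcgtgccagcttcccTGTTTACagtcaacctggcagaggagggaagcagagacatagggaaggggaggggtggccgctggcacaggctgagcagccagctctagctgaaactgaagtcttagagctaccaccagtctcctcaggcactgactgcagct
Atp6v1g3: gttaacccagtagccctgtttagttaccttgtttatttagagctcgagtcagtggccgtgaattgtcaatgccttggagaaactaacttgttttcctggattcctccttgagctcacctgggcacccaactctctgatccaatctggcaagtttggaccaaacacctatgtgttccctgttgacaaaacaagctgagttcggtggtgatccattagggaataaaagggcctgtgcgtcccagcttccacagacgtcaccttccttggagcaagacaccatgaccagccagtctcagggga

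The table held promoters for 7 of the 9 genes. In this exact form the motif was in 1 of these 7, against 3.78% of all 33469 promoters of the same length. A match in these letters is a description of the sequence only.

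Each array had between 41670 and 43630 of its 61657 probes well above background, no spot was saturated, and arrays of the same group correlated at 0.992 to 0.994 across genes. All 14 probes of the members were well above background on all 6 arrays. Values are log2 of the processed signal relative to the array's 75th percentile, so 0 is the signal at that percentile and 1 unit is a doubling. Levels of different probes are not compared, since probes differ in brightness for the same RNA. Precision is limited by having 3 arrays a group. All 3 controls and o-anisidine 3 were on 1 slide, and o-anisidine 1 and 2 were on another. All 12 tested proximal tubule genes, Umod of the thick limb and Slc12a3 of the distal tubule were well above background on every array. So were Upk1a of the urothelium and Slc14a2 of the inner medulla, so detection alone does not mark the cortex.

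No difference after o-anisidine was called for any of the 8 measured intercalated cell genes. The count past the threshold was 0 of 8 in either direction (limma with Benjamini-Hochberg adjustment over all genes, threshold 0.05), where 0.0611% of all genes were called (0.0354% higher and 0.0257% lower). At an unadjusted p under 0.05 the count was also 0 of 8, against 11.5% of all genes, and the groups did not overlap for 0 of 8, against 18.4%. The fitted log2 changes lay between -0.23 for Foxi1 and 0.26 for Slc4a1, with a median of -0.07, while the median of all genes was 0.00. Of the 8, 6 had a value below 0, as did 49.1% of all genes. In whole cortex, fewer intercalated cells and less RNA per cell cannot be told apart.

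The intervals say how large a difference these arrays leave room for. Taken over the 8 genes, the 95% intervals of the fold ran from 0.633-fold (the lower end for Foxi1) to 1.80-fold (the upper end for Slc4a1). The highest upper end among the other genes was 1.46-fold, for Rhcg. For 0 of the 8 genes did the interval reach a 2-fold difference in either direction. These limits hold for that fit only. For Slc4a1 the SE was 0.37 with slide as a block, against 0.24 here. Without o-anisidine 1 its log2 change was 0.47 (SE 0.21).

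**Figure D1:**
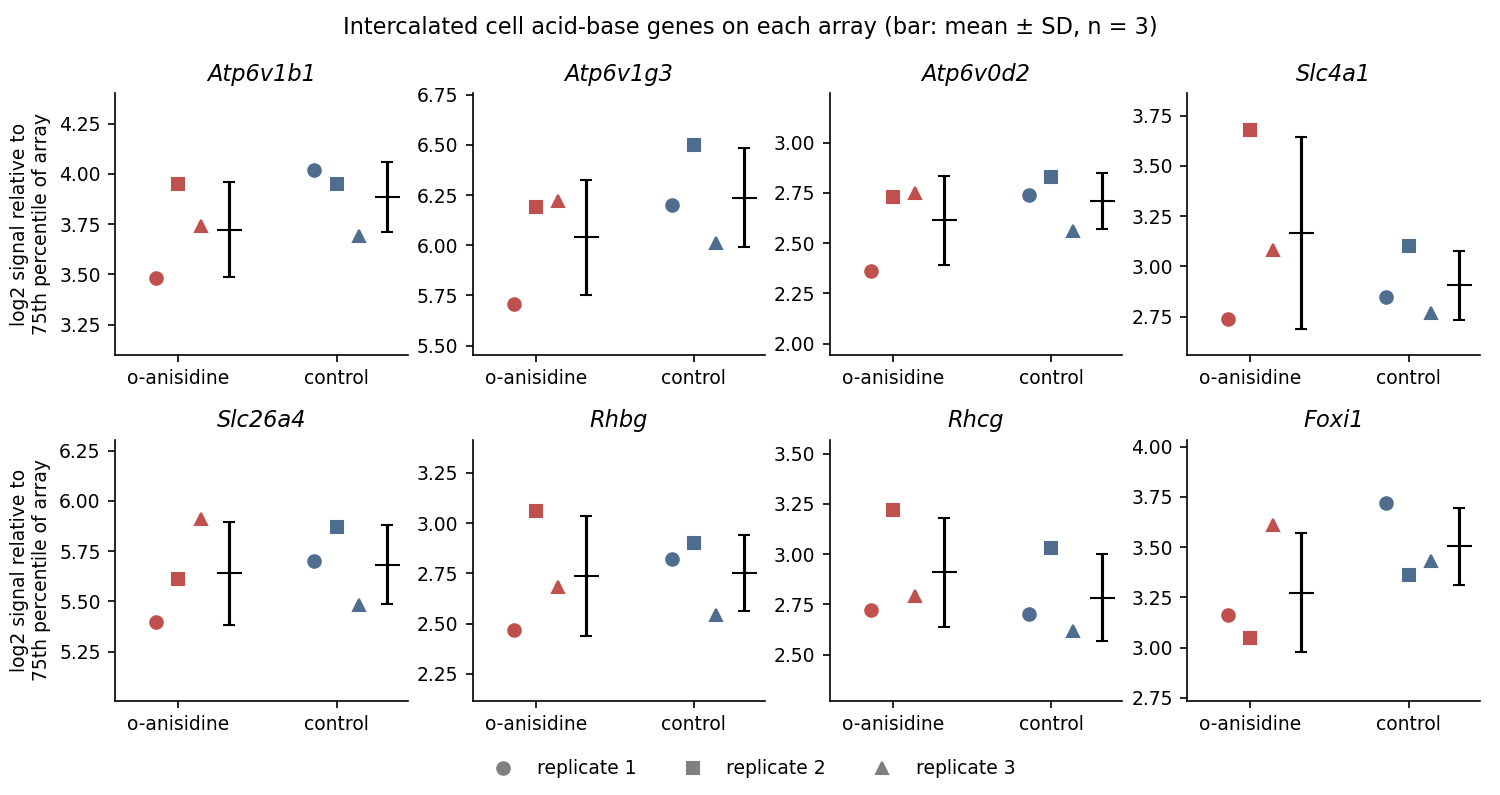
Log2 signal relative to the array's 75th percentile (vertical axis) of the 8 measured genes, with o-anisidine arrays on the left and control arrays on the right of each panel; symbols mark the replicate number, the bar beside them is the mean ± SD (n = 3), and every panel spans the same number of log2 units. In each panel the ranges of both groups overlap, and o-anisidine 1 is the lowest of the 6 arrays for 6 of the 8 genes.

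The V-ATPase is built from a cytosolic V1 sector, which splits ATP, and a membrane V0 sector, which carries the protons. Atp6v1b1 encodes the B1 subunit of V1, the form found in intercalated cells. It gave log2 signals of 3.48, 3.95 and 3.74 after o-anisidine (animals 1, 2 and 3), against 4.02, 3.95 and 3.69 on control arrays 1, 2 and 3. One treated animal lay below all controls and the others lay within their range, so the groups overlapped. The log2 change was -0.16 (SE 0.15, 95% interval -0.52 to 0.20, adjusted p = 0.711).

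Atp6v1g3 encodes the kidney form of the G subunit, part of the stalk that joins both sectors. It was at 5.71, 6.19 and 6.22 on o-anisidine arrays 1, 2 and 3, against 6.20, 6.50 and 6.01 on control arrays 1, 2 and 3. Again o-anisidine 1 alone lay under every control, and the other treated arrays fell among the controls. The log2 change was -0.19 (SE 0.19, 95% interval -0.65 to 0.26, adjusted p = 0.724). Atp6v0d2 encodes the d2 subunit, which sits between the sectors. It was at 2.36, 2.73 and 2.75 after o-anisidine, against 2.74, 2.83 and 2.56 in controls. The same animal was lowest and the groups overlapped. The log2 change was -0.09 (SE 0.14, 95% interval -0.43 to 0.24, adjusted p = 0.829).

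The widely expressed partners of these subunits gave narrower intervals around small differences. Atp6v1b2, which encodes the B2 form used in most tissues, had a log2 change of 0.02 (95% interval -0.25 to 0.29), with 4.61, 4.76 and 4.64 after o-anisidine against 4.67, 4.83 and 4.46 in controls. Atp6v1g1, the general G form, had 0.08 (-0.10 to 0.26), and Atp6v0a1, a general form of the subunit that Atp6v0a4 encodes in the kidney, had 0.10 (-0.07 to 0.27). Atp6v0d1, the general d form, was at 3.91, 3.90 and 3.85 after o-anisidine, under all of 3.97, 3.98 and 3.94 in controls. That separation is small, at -0.08 on the log2 scale (SE 0.06, limma adjusted p = 0.683).

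Across the other V-ATPase genes, 19 of 21 were tested and 0 passed the threshold in either direction (limma, Benjamini-Hochberg). At an unadjusted p under 0.05, 1 was higher and 0 lower, against 6.36% and 5.14% of all genes. The groups did not overlap for 2 higher genes and 1 lower gene, against 9.55% and 8.88% of all genes. The median log2 change was 0.04, and 15 of 19 were above 0. Atp6v1f, a V1 subunit, was at 4.68, 4.90 and 4.69 after o-anisidine, against 4.58, 4.57 and 4.44 in controls. All treated arrays lay above the controls, and the log2 change was 0.22 (SE 0.09, limma adjusted p = 0.434). Atp6v1c1, which links the sectors, had 0.12 (SE 0.07, adjusted p = 0.556), also without overlap.

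Slc4a1 had the widest spread of the members. Its brighter probe was at 2.74, 3.68 and 3.08 on o-anisidine arrays 1, 2 and 3, against 2.85, 3.10 and 2.77 on control arrays 1, 2 and 3. The treated animals held both the lowest and the highest of the 6 values, and o-anisidine 2 stood above all the others. The mean was 3.16 ± 0.48 after o-anisidine and 2.91 ± 0.17 in controls (SD, n = 3 each), with a log2 change of 0.26 (SE 0.24, 95% interval -0.34 to 0.85, limma adjusted p = 0.721). In the signed order of log2 changes, 89.3% of all tested genes lay below it. A single animal decided the size: without o-anisidine 2 the log2 change was 0.00, and without o-anisidine 1 it was 0.47, with neither past the threshold (adjusted p = 0.997 and 0.60).

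Because red cells share this gene, its values are set beside those of red cell genes, most of which rose on the same arrays. In the red cell list, 4 of 18 tested genes (Kel, Rhd, Hemgn and Ahsp) rose past the threshold, against 0.0354% of all genes in that direction, and the median log2 change was 1.19. The count was 1 with slide as a block, 0 within the slide that holds both groups, 0 with the replicate number as a block, and 1 without o-anisidine 3. It was 2 without o-anisidine 1, control 1 or control 2, and 8 with normexp background correction. Rhag and Trim10 were not well above background in any control and passed the filter only through the treated arrays. With their control values raised to each array's lowest signal well above background where they lay under it, the list median was 1.05. The globin genes Hba-a1, Hbb and Hbb-b1 set most of the summed signal of that list. The log2 of this sum was 10.83, 10.86 and 10.55 on o-anisidine arrays 1, 2 and 3. On control arrays 1, 2 and 3 it was 9.97, 9.50 and 9.56, so every treated array lay above every control. On o-anisidine 1 the brighter Slc4a1 probe had its lowest value of the 6 arrays, close to control 3 (2.74 against 2.77), and the dimmer probe was at -3.03 there, among the controls. Epb42, which encodes protein 4.2, a partner of band 3 in the red cell membrane, was at -2.69, -2.92 and -3.15 after o-anisidine, against -4.23, -4.61 and -4.70 in controls. Its groups were far apart, with a log2 change of 1.60 (SE 0.17, 95% interval 1.18 to 2.01), which missed the threshold at an adjusted p = 0.0888. That interval and the interval of Slc4a1 did not overlap. Not all red cell genes rose this far. In the list 16 of 18 had a log2 change above 0, and some lay nearer to Slc4a1. Gypc had -0.18, Xk -0.03, Slc25a37 0.22, Tal1 0.39 and Sptb 0.50. Hbb, a beta globin gene with near-identical copies, had 1.09 (95% interval 0.69 to 1.49, adjusted p = 0.112). The part that red cell RNA has in the Slc4a1 signal was not tested. Ank1, which encodes the red cell membrane protein ankyrin, matched no probe by accession and was not analysed here.

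Within each array, the log2 ratio of Epb42 to Slc4a1 was -5.43, -6.60 and -6.23 after o-anisidine, against -7.08, -7.71 and -7.47 in controls. All treated ratios lay above all control ratios, with a difference of 1.33. A two-sided exact permutation test gave p = 0.10, the smallest that 3 arrays against 3 allow (0.125 after Benjamini-Hochberg over 5 ratios chosen after the values were seen). The ratio of Hbb to Slc4a1 was also apart, with a difference of 0.83 and the same exact p = 0.10. Epb42 and Hbb alone were apart between groups too, so these p-values restate those separations. The ratio of Slc26a4 to Slc4a1 overlapped between groups, with a difference of -0.30 (exact permutation p = 0.40).

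Slc26a4, which encodes the bicarbonate exchanger pendrin of type B cells, was at 5.40, 5.61 and 5.91 on o-anisidine arrays 1, 2 and 3, against 5.70, 5.87 and 5.48 on control arrays 1, 2 and 3. Its highest value came from o-anisidine 3 and its lowest from o-anisidine 1, with the controls between. The log2 change was -0.04 (SE 0.16, 95% interval -0.44 to 0.35, adjusted p = 0.938). Slc4a9, an anion exchanger at the basolateral side of type B cells, had 2.33, 2.72 and 2.65 after o-anisidine, against 2.59, 2.53 and 2.29 in controls. These overlapped too, the log2 change being 0.10 (SE 0.14, adjusted p = 0.822).

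Rhbg and Rhcg encode ammonia channels of the collecting duct, Rhbg at the basolateral membrane and Rhcg mainly at the apical membrane, and they belong to the same protein family as the red cell Rh proteins. Rhbg was at 2.47, 3.06 and 2.68 on o-anisidine arrays 1, 2 and 3, against 2.82, 2.90 and 2.54 on control arrays 1, 2 and 3. The treated animals again held the lowest and the highest value, and the log2 change was -0.02 (SE 0.18, 95% interval -0.44 to 0.41, adjusted p = 0.979). Rhcg was at 2.72, 3.22 and 2.79 after o-anisidine, against 2.70, 3.03 and 2.62 in controls. Here o-anisidine 2 was highest and a control was lowest, and the log2 change was 0.13 (SE 0.17, 95% interval -0.29 to 0.55, adjusted p = 0.806).

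Rhd and Rhag are the red cell relatives of these channels. Rhd, a red cell Rh protein gene, rose by 2.61 log2 units (SE 0.12, adjusted p = 0.00477), at -0.59, -0.22 and -0.45 after o-anisidine against -3.05, -3.17 and -2.89 in controls. Rhag, which encodes the red cell Rh-associated glycoprotein, was not well above background in controls and passed the filter only through the treated arrays. Against the lowest signal well above background on each control array it was 2.02-fold higher after o-anisidine. That level is not a strict upper limit for a probe that is not well above background. The limma fit on its measured values missed the threshold (adjusted p = 0.0993). The ratio of Rhd to Rhcg within an array was -3.31, -3.44 and -3.24 after o-anisidine, against -5.75, -6.20 and -5.51 in controls. The ratios did not overlap, and the difference was 2.49 (exact permutation p = 0.10, the smallest possible). Rhd alone was also apart between groups, and the pair was chosen after the values were seen, so this p restates that separation.

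Foxi1 had the smallest p of the members. It was at 3.16, 3.05 and 3.61 on o-anisidine arrays 1, 2 and 3, against 3.72, 3.36 and 3.43 on control arrays 1, 2 and 3. On this brightest probe, both treated arrays of the second slide lay below all controls, and o-anisidine 3, on the slide of the controls, lay among them. The log2 change was -0.23 (SE 0.18, 95% interval -0.66 to 0.20, adjusted p = 0.655). Within the slide that held both groups o-anisidine 3 is the only treated array, so the value there rests on 1 animal, which is assumed to vary as the controls do. It was 0.11, above 0 rather than below it, and with slide as a fixed block it was the same, since the second slide holds no control.

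The same value, again from 1 treated array, was taken for the other members. It was -0.14 for Atp6v1b1, -0.02 for Atp6v1g3 and 0.04 for Atp6v0d2. It was 0.18 for Slc4a1 and 0.23 for Slc26a4, and it was -0.07 for Rhbg and 0.01 for Rhcg. The sign differed from that over all arrays for Atp6v0d2 and Slc26a4 as well as Foxi1. The median over the 8 genes was 0.03 within the slide.

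**Figure D2:**
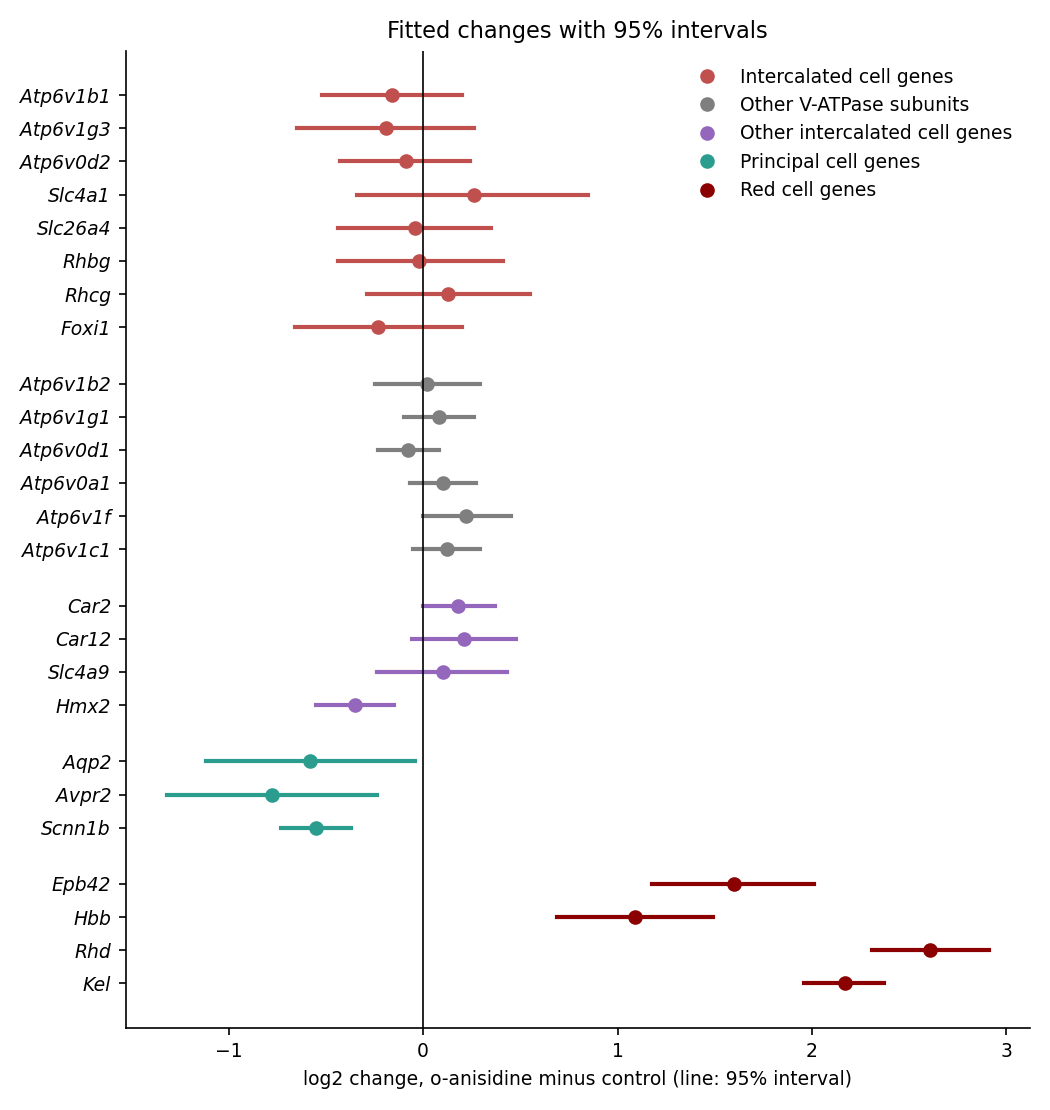
Fitted log2 change, o-anisidine minus control (horizontal axis, points), with the 95% interval (lines) for the 8 measured genes and for related V-ATPase, intercalated cell, principal cell and red cell genes named in the text. All 8 intervals of the intercalated cell genes include 0, while those of Epb42, Hbb, Rhd and Kel lie wholly above it and those of Aqp2, Avpr2 and Scnn1b wholly below. Red cell genes with smaller changes, such as Gypc and Xk, are not shown.

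Genes with several probes gave log2 changes of the same sign from each, although the probes differed widely in brightness. The second probe of Slc4a1 was at -3.03, -2.38 and -2.82 on o-anisidine arrays 1, 2 and 3, against -3.04, -2.91 and -3.21 on control arrays 1, 2 and 3. It ranked o-anisidine 2 highest, as the brighter probe did, with a log2 change of 0.31 (SE 0.18, 95% interval -0.13 to 0.75). Both probes carry the same accession, and the sources used here do not say which transcript form each reads. The second probes of Atp6v1b1, Atp6v1g3 and Slc26a4 had log2 changes of -0.22, -0.17 and -0.08, against -0.16, -0.19 and -0.04 on the brightest probe. The other probes of Foxi1 had -0.26 and -0.06, against -0.23 on the brightest. The probe with -0.06 was at -1.94, -1.93 and -1.70 after o-anisidine, against -1.59, -2.03 and -1.77 in controls. On it, o-anisidine 1 and 2 were not below all controls. The log2 changes of these other probes come from a fit over all 42036 kept probes, in which 0 of the 14 member probes passed the threshold.

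**Figure D3:**
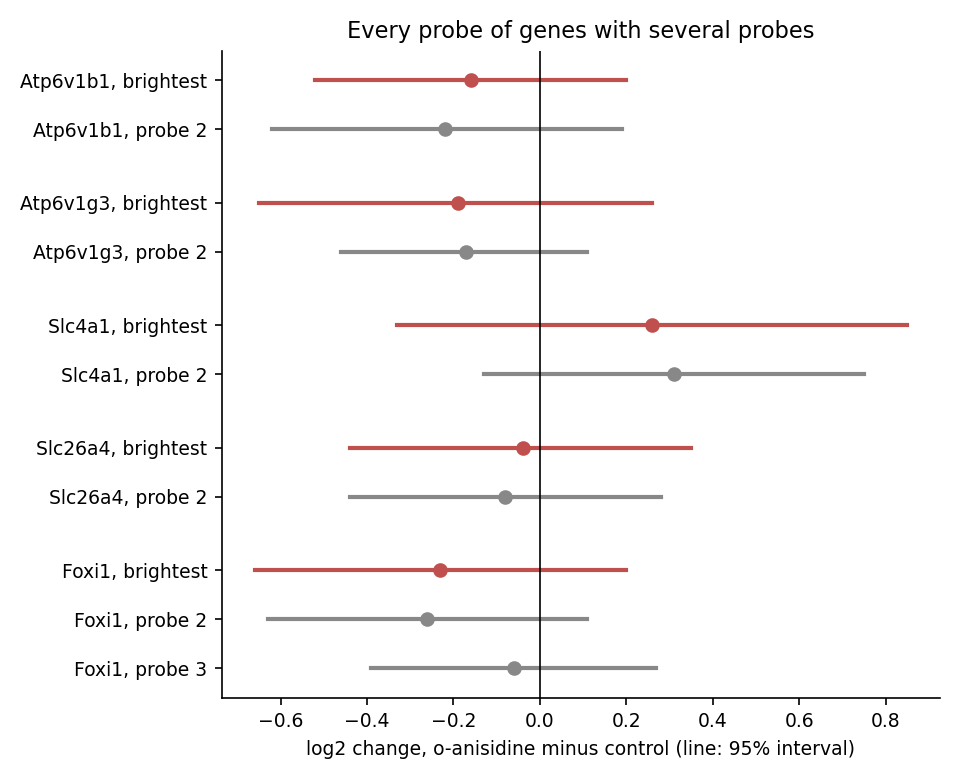
Log2 change, o-anisidine minus control (horizontal axis, points), with the 95% interval (lines) for each probe of the 5 genes that had several; the brightest probe is red and the others are grey. All 11 intervals include 0, and Slc4a1 is the only gene with probes above 0, on both of its probes.

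The members differed most from the controls on a single treated animal. On o-anisidine 1, 7 of 8 genes lay below all 3 controls, where 28.4% of all genes did, and 6 of 8 had their lowest value of the 6 arrays, where 17.3% of all genes did. The exceptions to the lowest value were Foxi1, lowest on o-anisidine 2, and Rhcg, lowest on control 3. On o-anisidine 2, 3 genes (Slc4a1, Rhbg and Rhcg) lay above all controls, and on o-anisidine 3 only Slc26a4 did. Relative to the control mean, the 8 genes had a median shift of -0.31 on o-anisidine 1, 0.04 on o-anisidine 2 and 0.03 on o-anisidine 3, against 0.02, 0.17 and -0.18 in the controls. The shift of o-anisidine 1 was outside the controls and those of the other treated arrays were inside. The SD was larger after o-anisidine than in controls for 8 of 8 genes, as for 55.4% of all genes. These genes are read from the same 6 arrays and are not independent of each other.

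Other lists were also below all controls on o-anisidine 1, from the duct and from elsewhere in the cortex. The connecting and distal tubule list had a median shift of -0.27 there, against 0.09 and 0.07 on o-anisidine 2 and 3 and -0.15 to 0.09 on controls. The podocyte list had -0.26 there (controls -0.08 to 0.15), the fibroblast list -0.38 (controls -0.27 to 0.33) and the thick limb list -0.10 (controls -0.05 to 0.04). The principal cell list had -0.44 there (controls -0.10 to 0.07), and the list of other intercalated cell genes -0.15 (controls -0.06 to 0.06). The podocyte and fibroblast lists were below all controls on o-anisidine 3 too (-0.11 and -0.29). So was the principal cell list on o-anisidine 2 and 3 (-0.19 and -0.16). On o-anisidine 1 the proximal tubule list had 0.06, with controls between -0.07 and 0.04. Also not below all controls there were the endothelial (0.03), medulla and papilla (0.06), leukocyte (0.09) and urothelial (-0.04) lists. Nor were the other V-ATPase (0.02), other acid-base (0.14) and red cell (1.25) lists. The part that tissue composition of this sample has in the members' values was not tested. Without o-anisidine 1 the median log2 change of the 8 genes was 0.06, and 0 of 8 passed the threshold.

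**Figure D4:**
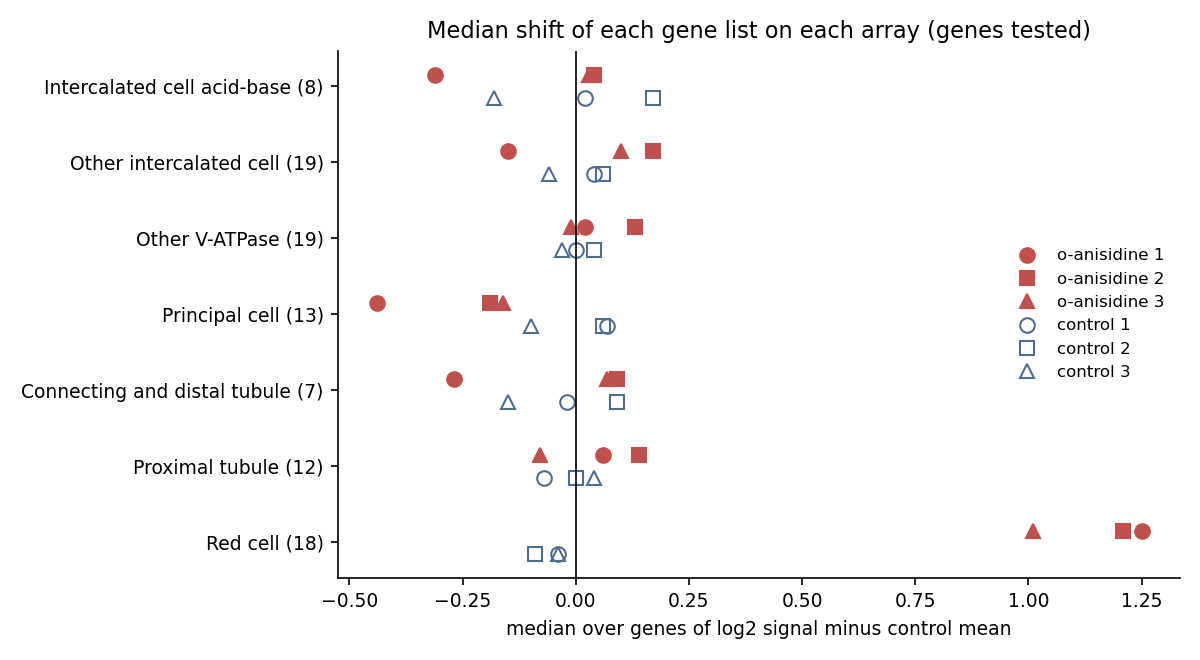
Median over the genes of a list of the log2 signal minus the control mean (horizontal axis) on each array; filled red symbols are o-anisidine arrays, open blue symbols are control arrays, and the number of genes tested stands in brackets. The intercalated cell genes are lowest on o-anisidine 1, with the other treated arrays among the controls, the principal cell list is below all controls on each treated array, and the red cell list is above them on each.

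Other genes of intercalated cells were tested next. Of 23 such genes, 19 were tested and 0 passed the threshold (limma, Benjamini-Hochberg). At an unadjusted p under 0.05, 1 was higher and 1 lower, against 6.36% and 5.14% of all genes. The groups did not overlap for 2 higher genes and 1 lower gene, against 9.55% and 8.88% of all genes. The median log2 change was 0.07, with 12 of 19 above 0. Car2, the cytosolic carbonic anhydrase that supplies protons and bicarbonate to these cells and to the proximal tubule, was at 4.95, 5.09 and 5.05 after o-anisidine, against 4.92, 4.82 and 4.80 in controls. All treated arrays lay above the controls, and the log2 change was 0.18 (SE 0.08, limma adjusted p = 0.434). Car12, a membrane-bound carbonic anhydrase, had 0.21 (SE 0.11, adjusted p = 0.528), also without overlap. Hmx2, a homeobox gene, was at 1.77, 1.96 and 1.95 after o-anisidine, against 2.29, 2.18 and 2.27 in controls. It lay lower on every treated array and had a log2 change of -0.35 (SE 0.08, 95% interval -0.55 to -0.15), which missed the threshold at an adjusted p = 0.222.

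Acid-base genes of other segments were also tested. Of 24 transporters, carbonic anhydrases and pH sensors, 23 were tested and 0 passed the threshold (limma, Benjamini-Hochberg), with 2 higher and 0 lower at an unadjusted p under 0.05, against 6.36% and 5.14% of all genes. The median log2 change was 0.06. The 2 were bicarbonate cotransporter genes. Slc4a4, which encodes the main basolateral bicarbonate exit route of the proximal tubule, was at 5.60, 5.73 and 5.50 after o-anisidine, against 5.18, 5.36 and 5.40 in controls. Its groups did not overlap and its log2 change was 0.30 (SE 0.10, adjusted p = 0.364). Slc4a7, which encodes an electroneutral bicarbonate cotransporter, had 0.44 (SE 0.12, adjusted p = 0.28).

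Principal cells are the neighbours of intercalated cells in the same duct and handle sodium and water. In their list 0 of 13 tested genes passed the threshold (limma, Benjamini-Hochberg), with 0 higher and 5 lower at an unadjusted p under 0.05, against 6.36% and 5.14% of all genes. The median log2 change was -0.19, and 11 of 13 were below 0. Scnn1b, which encodes the beta subunit of the epithelial sodium channel, was at 3.57, 3.50 and 3.61 after o-anisidine, against 4.12, 4.17 and 4.03 in controls. It was lower on every treated array, and the log2 change was -0.55 (SE 0.07, limma adjusted p = 0.101). Aqp2, the vasopressin-regulated water channel gene, had -0.58 (SE 0.22, adjusted p = 0.412) and Avpr2, the vasopressin receptor gene, had -0.78 (SE 0.22, adjusted p = 0.30), both without overlap. The ratio of Scnn1b to Atp6v1b1 within an array was 0.09, -0.45 and -0.13 after o-anisidine, against 0.10, 0.22 and 0.34 in controls. The treated ratios lay below the controls by a difference of -0.38 (exact permutation p = 0.10, the smallest possible). Scnn1b alone was also apart between groups, and the pair was chosen after the values were seen, so this p restates that separation. Any difference between the lists as wholes was not tested.

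The remaining lists stand here by their median log2 change and the gene with the smallest p. Thick limb genes had a median of -0.06 over 6 (Egf, a growth factor gene, -0.17), proximal tubule genes 0.04 over 12 (Lrp2, the gene of megalin, -0.20), podocyte genes -0.13 over 6 (Podxl, -0.31) and endothelial genes 0.03 over 7 (Emcn, -0.22). Medulla and papilla genes had 0.09 over 8 (Cldn4, a tight junction gene, 0.35), urothelial genes -0.03 over 4 (Upk1a, a uroplakin gene, 0.45) and fibroblast genes -0.29 over 5 (Col1a2, a collagen gene, -0.32). Connecting and distal tubule genes had -0.04 over 7 (Slc8a1, a sodium-calcium exchanger gene, -0.57). None of these 8 genes passed the threshold. The leukocyte list had -0.10 over 8, in which Cd52, a leukocyte surface gene, rose past it with a log2 change of 2.12 (adjusted p = 0.038). That call was lost without any 1 of the 6 arrays, with slide or replicate number as a block, within the slide that holds both groups, and with no filter on dim probes, each of which left 0 of 8 leukocyte genes past the threshold. Kel, a blood group gene, had the smallest p of the red cell list (2.17, adjusted p = 0.0020).

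The genes whose 6 values were most like those of Slc4a1, Slc26a4 and Atp6v1b1 were looked up among the 12014 other genes with a symbol. For Slc4a1 they were Or2h1, Zdhhc3 and Nherf2 (Pearson r = 0.987, 0.981 and 0.976 over 6 arrays). For Slc26a4 they were Cops7a, Dcaf12l1 and Eif4b (r = 0.996, 0.993 and 0.991), and for Atp6v1b1 they were Mfhas1, Sowahc and Yif1b (r = 0.997, 0.997 and 0.987). No red cell gene was among the 3 nearest to Slc4a1, which says little, since only 3 of 12014 genes were taken. With 6 points and this many genes, correlations of this size describe the arrays only, since all values share the same libraries and scaling.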

How the data were processed

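Per the file headers, the deposited scanner files hold the intensity of each spot as written by Feature Extraction 10.7.1.1 of Agilent (10.7 in the submitters' processing notes), and the processed intensity is background-subtracted and detrended within the array, with no scaling between arrays. The other deposited columns used are raw median intensity values and spot flags, per the file headers. The authors' value table holds intensity scaled between arrays: its columns were equal to the scanner values of a different animal in their group (r = 1.00, against 0.991 to 0.993 with the animal of the same number), so replicate numbers follow the scanner files and which numbering is right is unknown.

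Control spots and 16 probes with an outlier flag were left out, and a probe was kept if it was well above background on every array of either group, which left 42036 of 61657. Accessions were matched without version to the RefSeq table of GRCr8, for names only (27460 probes, 15284 symbols). Gene coordinates are not given because the array was designed on rn4. The brightest kept probe stood for a gene. Groups were compared with limma 3.58.1 in R 4.3.3 (lmFit, eBayes, two-sided, no covariates), with Benjamini-Hochberg adjustment over 31087 genes and a threshold of 0.05, and the fit was tested on simulated data. SD, SE and interval values are on the log2 scale; log2 values were computed from the deposited intensity. Alternatives changed scaling, background correction, filter, probe summary, variance model, value table, slide, pairing and the arrays used.

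The members, gene lists and tests were chosen with earlier results of these data known. Genes named beyond the members were the listed partners of the members, in the V-ATPase and intercalated lists the largest changes whose groups did not overlap, in other lists the gene of smallest p, and the 3 genes of highest correlation. Atp6v1f, Atp6v1c1, Car12 and Hmx2 entered by that rule. Other named genes, such as Avpr2, Slc4a4, Hbb, Trim10, Hemgn and Ahsp, and all 5 within-array ratios were added after values were seen. Same-numbered arrays deviated from their group means with correlations of 0.02, 0.08 and 0.01, and the other pairs of a treated and a control array with -0.05 to 0.03. These values cannot decide whether the numbers pair the animals, since each mean rests on 3 arrays.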

Additional observations from a re-analysis of the deposited data

How the results depend on the processing

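In all 17 alternatives 0 of the 8 intercalated cell genes passed the threshold, with adjusted p between 0.307 (Foxi1 without o-anisidine 3) and 0.997 (Slc4a1 without o-anisidine 2), and their median log2 change lay between -0.17 and 0.06. Their log2 changes are small against their errors, and directions turned in several settings, for which the cause was not tested. With slide as a block, and within the slide that holds both groups (1 treated array), Atp6v0d2 had 0.04, Foxi1 0.11 and Slc26a4 0.23. Leaving out each array in turn gave -0.17 to 0.04 for Atp6v0d2, -0.18 to 0.11 for Rhbg (0.01 without o-anisidine 3 or control 1, 0.06 without control 2), -0.02 to 0.25 for Rhcg, -0.40 to -0.12 for Foxi1 (-0.40 without o-anisidine 3, there at an unadjusted p under 0.05, and -0.12 without o-anisidine 2 or control 1), -0.27 to -0.04 for Atp6v1b1, -0.31 to -0.03 for Atp6v1g3, 0.00 to 0.47 for Slc4a1 and -0.18 to 0.08 for Slc26a4 (0.05 without control 2). With the replicate number as a block, log2 changes were as reported (Foxi1 -0.23, Slc4a1 0.26, Rhcg 0.13) and no member's call changed, with 1 gene higher and 0 lower over all genes. Over all genes, 11 were higher and 8 lower. These counts were 67 and 17 with normexp, 91 and 29 with the trend and robust variance model (there 1 of 13 principal cell genes passed), and 2 and 1 with slide as a block. They were 1 and 1 within the slide, 5 higher with no filter on dim probes, and 5 lower with all 6 arrays well above background. Without 1 array they ran from 2 to 16 higher and 1 to 5 lower. Scaling to the array median or quantile normalization moved the median of all genes by at most 0.01.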
